A study of Mus musculus with 56 samples.

Results

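Gene expression in the forestomach was compared between 4 mice gavaged with chrysene at 50 mg/kg-bw/day (D2) and 5 mice gavaged with the vehicle alone (D0). These are the 9 arrays, of 56 in the whole series, that the sample labels assign to this tissue and these dose groups. All animals were adult male MutaMouse of about 14 weeks, a transgenic strain used to score mutations, so that the transgene was common to both groups. Both groups received olive oil on 28 consecutive days, with chrysene dissolved in it for D2, and tissue was taken 72 hours after the last dose. The 10 forestomach arrays from the 17.5 mg/kg (D1) and 150 mg/kg (D3) groups shared the estimate of spread and are compared with D2 further on. RNA came from a random section of each forestomach, with 1 array per mouse and no pooled animals. Each array carried the mouse's RNA in Cy5 and a universal reference RNA from 11 mouse cell lines in Cy3, and each value below is a log2 ratio of sample over reference. Of 55681 probes, 27527 were tested, those for which 3 or more of the 19 forestomach arrays gave a Cy5 signal well above background, and they represent 14086 of the 20018 genes that could be named.

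The rodent forestomach is a keratinized squamous pouch that meets the glandular stomach at a ridge, and it is the first tissue that a gavaged compound reaches. Chrysene is a polycyclic aromatic hydrocarbon. Compounds of this class can bind the aryl hydrocarbon receptor (AhR), which pairs with ARNT and induces Cyp1a1, Cyp1a2 and Cyp1b1, the monooxygenases that oxidize the hydrocarbon. Oxidized metabolites can bind DNA, which p53 targets such as Cdkn1a and Ccng1 report, or can engage the antioxidant factor NRF2, whose targets include Nqo1. The comparison asks which genes of the forestomach differ at the middle dose 72 hours after dosing has ended.

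Markers of squamous epithelium, taken as a list, gave high ratios on every array, and those of glandular stomach, given next, did so on most. All 15 genes of a squamous epithelium list were measured on the arrays, and the mean log2 ratio of the list lay between 3.46 and 5.05 in D0 and between 3.89 and 4.59 in D2. Lor, a protein of the cornified envelope, averaged 7.11 in D0 and 6.98 in D2, and Krt4, a keratin of the layers above the basal one, averaged 6.23 and 6.26.

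Transcripts of the glandular stomach varied among the control mice. Over the 15 measured genes of a glandular list, the mean log2 ratio was 0.70 in D0 mouse 1, 5.89 in mouse 2, 5.13 in mouse 3, 0.46 in mouse 4 and 4.64 in mouse 5. It was 4.84, 5.95, 4.78 and 4.51 in D2 mice 11, 12, 13 and 15. D0 mice 1 and 4 thus stood apart from the other 7, whereas the range of D2 lay within that of the remaining controls except for mouse 12, just above it, and mouse 15, just below it. Cblif, the intrinsic factor gene, read 0.16 and 0.68 in D0 mice 1 and 4, and 7.34 to 9.49 in the other 7 mice. Pgc and 11 other genes of the list were well above background on 3 of the 5 D0 arrays and on all or 3 of the 4 D2 arrays, while Tff1 and Gkn2 were so on all 9. Gast reached that level on 2 D0 arrays and on no D2 array. The mean difference of the list was 1.66 with an exact permutation p of 0.397. Two-sided exact tests of 15 array measures (Cy5 signal, share of bright spots and 13 marker lists) gave no adjusted p below 0.952, where the possible splits of the arrays allow 0.0159 at the least before adjustment. In bulk RNA, fewer cells of a type and less RNA per cell cannot be told apart.

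Other tissues next to the forestomach also differed from mouse to mouse. The mean of 11 adipocyte genes was 3.71 and 3.61 in D0 mice 2 and 5, 0.45 to 0.60 in the other D0 mice, and 0.61 to 2.62 in D2. The pancreatic acinar list ranged from 0.15 to 2.60 in D0 and from 0.61 to 2.77 in D2. Among the 20 genes with the largest spread over the 9 arrays were Anxa10, Cblif, Chia1, Atp4a and Atp4b, all at 0.68 or less in D0 mice 1 and 4, as well as the fat gene Cfd and the pancreatic protease genes Try4 and Try5.

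Arrays also differed in brightness. The 95th percentile of the Cy5 signal was 501 in D0 mouse 1 and 1147 in D2 mouse 11 on slide 1. On slide 2 it was 432.4 and 278.5 in D0 mice 3 and 4 against 684 and 545.5 in D2 mice 13 and 15, and on slide 3 it was 5886.5 and 6220 in D0 mice 2 and 5 against 6586 in D2 mouse 12. D2 arrays were thus brighter than the D0 arrays of their own slide on all 3 slides, but the groups overlapped across slides. The share of spots well above background in Cy5 was also higher in D2 within each slide. It ranged from 18.9% to 50.3% in D0 and from 27.3% to 50.8% in D2. All D2 arrays lay in column 3 of their slides, whereas 4 D0 arrays lay in column 1 and mouse 2 in column 4, so that column and dose nearly coincide. The part that section content, brightness and column have in a gene's difference was not tested, and values without D0 mice 1 and 4, within slides or with a covariate are given beside some of the results. Leaving out D0 mice 1 and 4 also unbalances the slides. It leaves slide 1 without a control, and the remaining controls are mice 2 and 5 on the bright slide 3 and mouse 3 on slide 2.

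**Figure D1:**
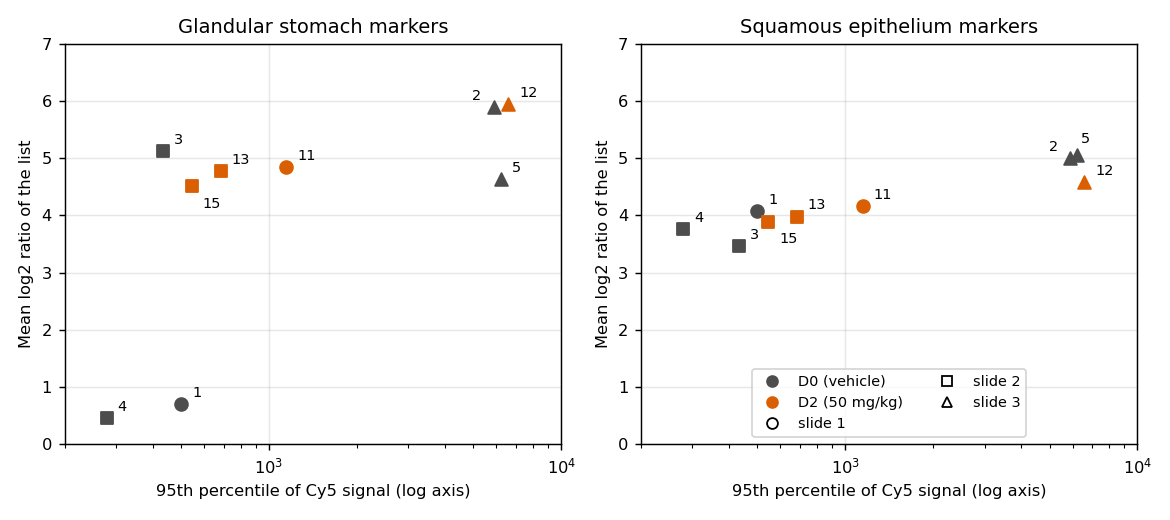
Mean log2 ratio of the glandular stomach list (left) and the squamous epithelium list (right) against the 95th percentile of the Cy5 signal on a log axis, 1 point per mouse with its number, coloured by dose and shaped by slide. D0 mice 1 and 4 lie at 0.70 and 0.46 for the glandular list while the other 7 mice lie between 4.51 and 5.95, and no such gap is seen for the squamous list.

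No probe passed both limits of the comparison, an adjusted p (Benjamini-Hochberg) no larger than 0.05 together with a difference of 1.5-fold or more (0 of 27527 probes, 0%, limma). The smallest adjusted p was 0.111. At an unadjusted p of at most 0.05, 902 probes were higher in D2 (3.28%) and 1173 were lower (4.26%), together 7.54%. An Fs statistic written here after the methods also gave 0 probes past both limits, and 2063 at an unadjusted p of at most 0.05. It is not a rerun of the authors' own test and does not stand for their result. Counted by genes, with 1 probe per gene, 666 were higher (4.73%) and 483 lower (3.43%), together 8.16%, at the unadjusted limit. All 4 D2 values lay above all 5 D0 values in 182 genes (1.29%) and below them in 132 (0.937%). With each array weighted by its own residual spread, 57 probes passed both limits, 30 higher and 27 lower, and 8 of the 20 genes described next were among them. The weights were 1.6, 0.409, 0.59, 0.661 and 0.417 in D0 mice 1 to 5. In D2 mice 11, 12, 13 and 15 they were 2.32, 0.394, 2.49 and 1.67. Among controls the weights were thus largest for mice 1 and 4, the pair with little glandular signal. Without D0 mice 1 and 4, 0 probes passed both limits, and 756 were higher and 543 lower at the unadjusted limit. By genes this was 3.57% higher and 1.38% lower. The genes below are therefore given with their values in each mouse, and none is called changed.

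The size of the differences was modest against the spread between mice. The median size of a gene's log2 difference was 0.157 and the median standard error was 0.20. Spread was larger among controls, with a median SD of 0.354 in D0 and 0.245 in D2, and 73.4% of genes had the larger SD in D0. Over the same genes, the correlation between arrays was 0.711 to 0.942 for the 10 pairs of D0 arrays, 0.858 to 0.966 for the 6 pairs of D2 arrays and 0.654 to 0.965 for the 20 pairs of a D0 with a D2 array. Of the 139 genes that differed by more than 1 log2 unit, 129 were higher in D2, and only 15 of the 139 had an unadjusted p of at most 0.05. Glandular genes were among them, as all 14 tested members of the list were higher in D2, by a median of 1.68 on the log2 scale, with 0 of 14 at the unadjusted limit. That median was −0.27 without D0 mice 1 and 4.

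**Figure D2:**
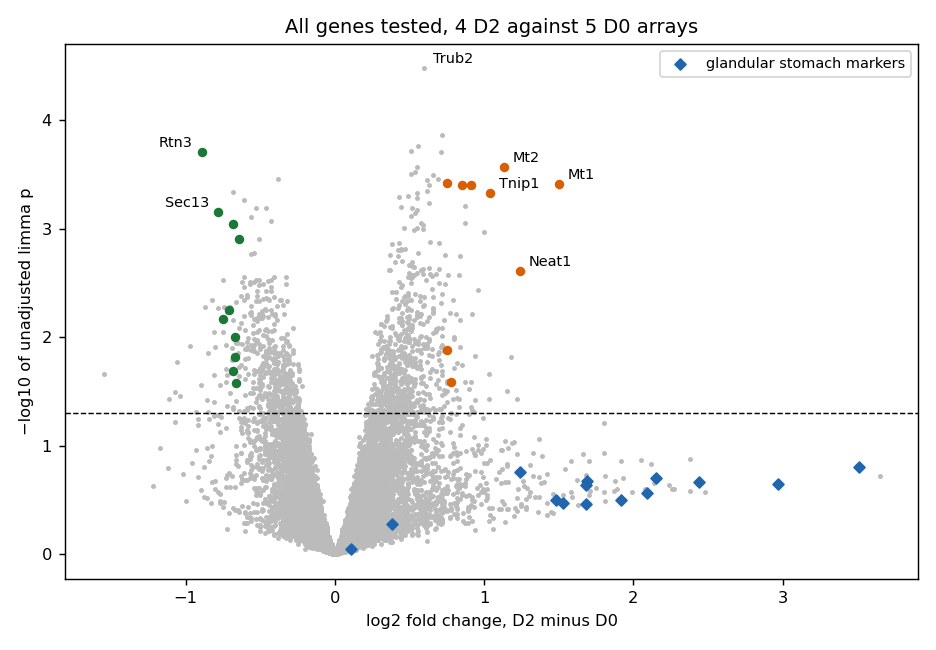
Significance of each gene before adjustment (limma, −log10 axis) against the log2 fold change D2 minus D0 for all 14086 genes tested, with a dashed line at the unadjusted limit of 0.05. Orange and green points are 9 of the 10 highest and the 10 lowest genes of the naming rule, Trub2 is the gray point at the top, and blue diamonds are the glandular stomach markers, which have large differences with large errors.

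The metallothionein genes Mt1 and Mt2 were the first and the third by size of difference among the named genes that were higher in D2 without overlap between groups. Both encode small cysteine-rich proteins that bind zinc, copper and cadmium, and both are known to be induced by metals through the factor MTF1, by glucocorticoids and by oxidative stress. Mt1 read −1.47, −0.29, −0.77, −1.36 and −0.65 in D0 mice 1 to 5, and 0.62, 1.41, 0.08 and 0.27 in D2 mice 11, 12, 13 and 15. Every D2 value was above 0 and every D0 value below it. The log2 difference was 1.5 ± 0.34 (SE, 5 against 4 mice), a 2.83-fold difference with an adjusted p of 0.378 in limma. It was 2.09 within slide 1, 1.24 within slide 2 and 1.87 within slide 3, and 1.16 without D0 mice 1 and 4.

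Mt2 read −0.45, −0.01, 0.84, −0.10 and 0.16 in D0 and 1.14, 1.49, 1.08 and 1.18 in D2. The D2 mice were close to one another, and the nearest control was mouse 3. The log2 difference was 1.13 ± 0.25, a 2.19-fold difference (adjusted p = 0.378, limma), with 1.58, 0.76 and 1.41 within slides 1, 2 and 3 and 0.89 without D0 mice 1 and 4. Both genes were well above background on all 9 arrays, and neither had a second probe. With array column, the glandular list or Cy5 brightness as a covariate, the log2 difference was 1.22, 1.16 and 1.47 for Mt1 and 1.24, 0.96 and 1.12 for Mt2. With array weights, which were largest among controls for mice 1 and 4, the log2 difference was 1.5 for Mt1 (adjusted p = 0.0466, limma). For Mt2 it was 1.21 (adjusted p = 0.0418, limma).

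Because Mt1 and Mt2 lie next to each other and their values moved together, their promoters are shown. The windows are RefSeq sequences of the assembly GRCm38.p6, + strand, from 250 bases before to 50 bases after the annotated start, at chr8:94178839-94179138 for Mt1 and chr8:94172368-94172667 for Mt2, 6.5 kb apart. Capitals mark matches on either strand to the core of the metal response element that MTF1 binds, searched as TGCACNC or TGCGCNC.
Mt1: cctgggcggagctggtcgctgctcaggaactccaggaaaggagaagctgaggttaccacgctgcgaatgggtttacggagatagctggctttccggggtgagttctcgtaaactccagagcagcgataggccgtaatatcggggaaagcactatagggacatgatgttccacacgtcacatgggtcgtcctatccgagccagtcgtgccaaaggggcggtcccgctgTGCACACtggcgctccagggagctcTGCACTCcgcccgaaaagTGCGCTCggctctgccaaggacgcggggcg
Mt2: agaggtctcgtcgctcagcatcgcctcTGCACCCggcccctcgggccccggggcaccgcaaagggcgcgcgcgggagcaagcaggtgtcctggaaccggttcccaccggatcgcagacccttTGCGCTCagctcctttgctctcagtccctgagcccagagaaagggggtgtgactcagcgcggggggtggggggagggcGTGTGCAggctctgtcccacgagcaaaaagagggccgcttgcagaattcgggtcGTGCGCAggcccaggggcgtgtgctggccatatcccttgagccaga
Mt1 holds 3 matches, all on the + strand, of which 1 lies before the start and 2 after it, and Mt2 holds 4, with 2 on each strand. At least 1 match occurs in 25.7% of the 32851 promoter windows of this length, at least 3 in 1.97% and at least 4 in 0.517%. A match is a run of letters and was not shown to be bound here.

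Other metallothioneins and a zinc transporter gave smaller differences. These genes were looked up after the values of Mt1 and Mt2 had been seen. Mt4, which is known from stratified squamous epithelium, averaged 6.79 in D0 and 6.88 in D2, a log2 difference of 0.09 ± 0.46. Mt3 differed by −0.23 ± 0.11 and Slc30a1, a zinc exporter that MTF1 also induces, by 0.02 ± 0.35. The Mt3, Mt4 and Slc30a1 promoter windows held 1, 1 and 2 matches of the same core. Among 15 glucocorticoid-responsive genes and metallothioneins, Mt1 and Mt2 were the 2 members at the unadjusted limit (13.3% against 4.73% of all genes), and the median log2 difference of the list was −0.04. The count stayed at 2 without D0 mice 1 and 4. Fkbp5 and Tsc22d3, widely used readouts of glucocorticoid action, differed by −0.16 ± 0.26 and −0.01 ± 0.22.

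Neat1, the long noncoding RNA that scaffolds nuclear paraspeckles, lay between Mt1 and Mt2 by size of the difference. Its values were −1.68, −0.95, −0.55, −1.56 and −0.96 in D0 and −0.04, 0.22, 0.39 and −0.17 in D2, with no overlap. The log2 difference was 1.24 ± 0.35 (adjusted p = 0.487, limma), 1.65, 1.17 and 1.18 within the 3 slides and 0.92 without D0 mice 1 and 4. A further 5 probes carry the name NEAT1 in the files, and their differences ranged from 0.96 to 1.24, each again with all D2 values above all D0 values. These 6 probes read the same RNA samples and are not independent. Malat1, the neighbouring nuclear noncoding RNA, was looked up afterwards and differed by 0.31 ± 0.35.

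Among the other genes of the 10 highest were an RNA-binding and a chromatin protein. Hnrnpdl, a nuclear ribonucleoprotein, differed by 0.75 ± 0.27 with the same sign in both of its probes. Ptma, the chromatin-associated acidic protein prothymosin alpha, differed by 0.85 ± 0.20. For Ptma the difference was 1.57 within slide 1 and 0.22 within slide 3, where the controls lay at −0.50 and −0.58 and D2 mouse 12 at −0.32. The differences without D0 mice 1 and 4 were 0.85 for Hnrnpdl and 0.52 for Ptma.

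The other 4 are enzymes or signalling proteins. Tnip1, a ubiquitin-binding inhibitor of NF-κB signalling, read −2.08, −1.09, −1.47, −1.80 and −1.29 in D0 and −0.50, −0.23, −0.63 and −0.66 in D2. Its log2 difference of 1.04 ± 0.24 was seen at 1.58, 0.99 and 0.96 within the slides. Mat2a, the enzyme subunit that makes S-adenosylmethionine, differed by 0.91 ± 0.21, although its second probe had the opposite sign. The same held for Dnm2, the endocytic GTPase dynamin 2, at 0.75 ± 0.17. Leaving out D0 mice 1 and 4 gave 0.78 for Tnip1, 0.62 for Mat2a and 0.68 for Dnm2. Naprt, which starts NAD synthesis from nicotinic acid, read 3.22, 3.69, 3.50, 1.54 and 3.80 in D0 and 3.81, 4.23, 3.83 and 3.85 in D2. D0 mouse 4 carried much of its log2 difference of 0.78 ± 0.32, which was 0.38 without that mouse and 0.27 without D0 mice 1 and 4.

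The 10 lowest genes began with Rtn3, Sec13 and Tmem167. Rtn3, a reticulon of the tubular endoplasmic reticulum, read 1.25, 0.83, 0.61, 1.36 and 1.26 in D0 and 0.21, 0.34, −0.09 and 0.22 in D2, a log2 difference of −0.89 ± 0.19 (adjusted p = 0.378, limma). Sec13, a subunit of the COPII coat that is also part of the nuclear pore, read 0.24, 0.23, −0.19, 0.64 and 0.10 in D0 and −0.68, −0.23, −0.75 and −0.64 in D2, a difference of −0.78 ± 0.19. In Rtn3 a clear gap lay between the groups, whereas in Sec13 the lowest control and the highest D2 mouse were close together. Tmem167 differed by −0.75 ± 0.24 with the same sign in both probes. Without D0 mice 1 and 4 the 3 differences were −0.73, −0.62 and −0.53.

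The remaining low genes have varied roles. Psmd14, the deubiquitinase of the proteasome lid, differed by −0.68 ± 0.27, Atp6v1e1, a subunit of the proton pump of acidic organelles, by −0.67 ± 0.25 and Smim7 by −0.71 ± 0.23. Chac1, a glutathione-degrading enzyme of the integrated stress response, had tight controls at −0.73, −0.91, −0.70, −0.79 and −0.96, and D2 values of −1.30, −1.98, −1.55 and −1.09. Its log2 difference was −0.66 ± 0.27. The open reading frame 1190007I07Rik, Gm13315 and Churc1 differed by −0.68 ± 0.17, −0.67 ± 0.23 and −0.64 ± 0.17. When D0 mice 1 and 4 were left out, Psmd14 and Atp6v1e1 moved the most of these, to −0.32 and −0.42, and the other 5 lay between −0.68 and −0.44.

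**Figure D3:**
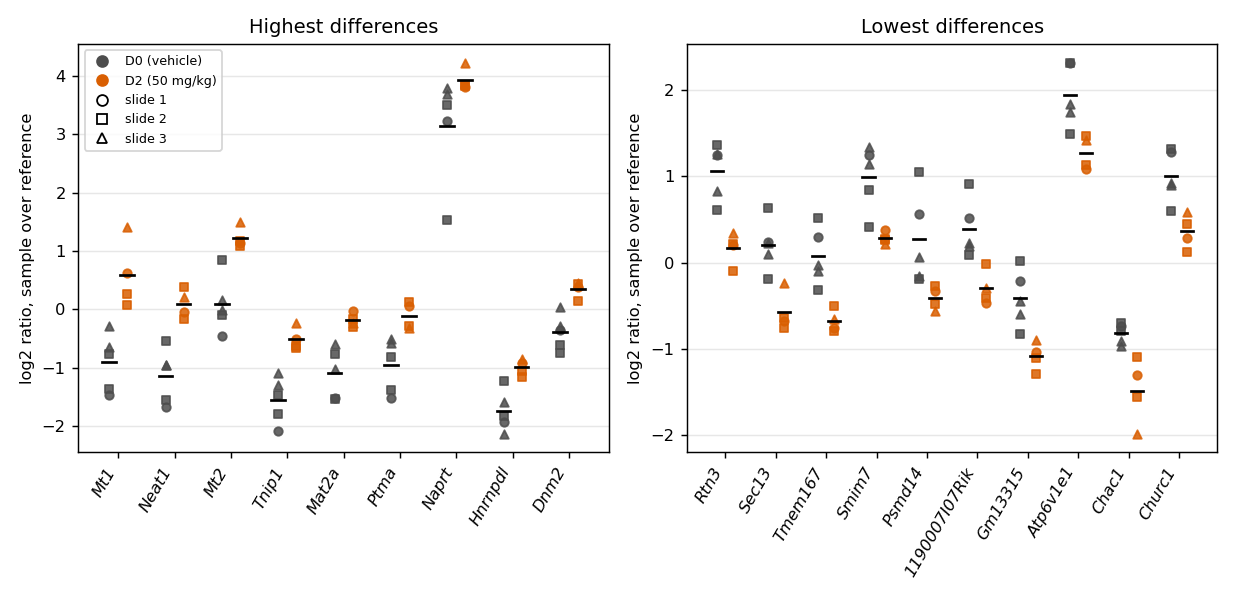
Log2 ratio of sample over reference in each mouse for 9 of the 10 highest and for the 10 lowest genes of the naming rule, D0 in gray and D2 in orange, shaped by slide, with a bar at the group mean. Mt1 lies below 0 in all 5 controls and above 0 in all 4 D2 mice, and Naprt in D0 mouse 4 sits far below the other controls.

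**Figure D4:**
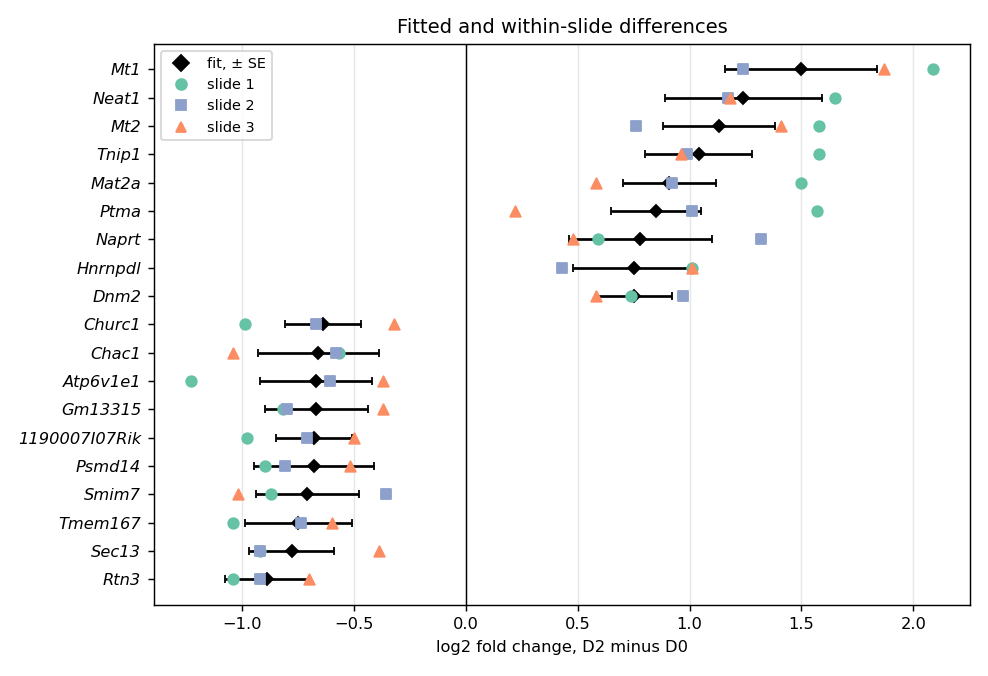
Log2 difference D2 minus D0 for the same 19 genes, from the fit over 19 arrays with its SE and within each slide. All 19 genes keep their sign on the 3 slides, where slide 1 compares 1 mouse with 1, slide 2 compares 2 with 2 and slide 3 compares 1 D2 mouse with 2 controls.

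All 20 genes had the same sign within each of the 3 slides, which held for 18.9% of all genes in the higher direction and 18.2% in the lower one. The naming rule required groups that did not overlap, so that this count is a description. Over 23 alternatives, which share most of their arrays, the sign stayed the same in 460 of 460 values.

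The single probe with the smallest p lies in a region that the files name by position, on the forward strand at chr1:63264155-63345773 (mm9), with no gene name. It read −0.49, −0.24, −0.59, −0.12 and −0.61 in D0 and −1.98, −1.64, −1.60 and −1.47 in D2. The log2 difference was −1.26 ± 0.19 (adjusted p = 0.111, limma), and −1.40 with an adjusted p of 0.0268 when loess was computed here. The same probe was 3.08 log2 units brighter in D2 in the Cy3 channel, which holds only the reference RNA, and was well above background in Cy5 on 2 of 5 D0 and 4 of 4 D2 arrays. For Mt1, Mt2 and Neat1 the Cy3 difference was −0.04, −0.01 and −0.01.

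Genes of the AhR pathway gave no clear difference between the groups. Cyp1a1 was not well above background on any of the 5 D0 arrays and was so on 1 of the 4 D2 arrays, with values of 0.53, 0.02, 0.01, 0.10 and 0.23 in D0 and 0.70, 0.04, 0.18 and 0.11 in D2. Its log2 difference was 0.08 ± 0.80 (95% interval −1.61 to 1.77), the widest interval of the fixed genes tested, and its sign turned with median centring (−0.03) and with slide as a block (−0.02). The SD of Cyp1a1 was 0.21 in D0 and 0.30 in D2, and the interval also takes in the spread of the D1 and D3 arrays. At D1 and D3 Cyp1a1 differed from D0 by 0.75 and 1.07, with neither past both limits. On none of the 9 arrays was Cyp1a2 well above background. Cyp1b1 differed by 0.13 ± 0.40, with 1 control, mouse 2, at −2.0 and the other controls at −0.43 to −0.22. With array column as a covariate the difference of Cyp1b1 was 0.77, and without mouse 2 it was −0.20. The AhR repressor Ahrr differed by −0.20 (95% interval −0.49 to 0.09), but it was well above background on only 2 of 5 D0 and 2 of 4 D2 arrays, so that the interval sets no firm limit on a difference in its level. Tiparp, an ADP-ribosyltransferase induced by AhR, differed by −0.16 (−0.56 to 0.24). Nqo1, a quinone reductase under both AhR and NRF2, differed by 0.20 (−0.78 to 1.18), and its sign turned without D0 mice 1 and 4, to −0.20. The intervals of Cyp1a1, Cyp1b1 and Nqo1 are wide enough to hold a 1.5-fold difference in either direction.

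Of 18 genes in the AhR list, 16 were tested and 1 was at the unadjusted limit (6.25% against 4.73% of all genes in that direction). This was Arnt, the partner of AhR, at 0.31 ± 0.10, for which D2 lay between −0.29 and −0.14 and D0 between −0.61 and −0.41. Its second probe had the opposite sign. The median difference of the list was 0.03 against 0.02 for all genes.

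Of 26 NRF2 targets tested, 5 were at the unadjusted limit and higher in D2 (19.2% against 4.73%), 0 were lower, and the median log2 difference was 0.19. They were Pgd, of the pentose phosphate pathway, at 0.57 ± 0.18, Tkt of the same pathway at 0.73 ± 0.33, the thioredoxin reductase Txnrd1 at 0.45 ± 0.17, the ferritin heavy chain Fth1 at 0.69 ± 0.28 and Gclc, the catalytic subunit of glutathione synthesis, at 0.59 ± 0.27. Pgd read 0.66, 1.40, 1.07, 0.39 and 1.36 in D0 and 1.70, 1.69, 1.37 and 1.44 in D2. In D0 it was lowest in mice 1 and 4, the pair with little glandular signal, and without them its difference was 0.27, while Txnrd1, Fth1 and Gclc gave 0.24, 0.33 and 0.34. Hmox1 and Cbr3, also targets, read −0.61 ± 0.30 and −0.55 ± 0.27, in the opposite direction. When D0 mice 1 and 4 were left out, 0 of the 26 genes were at the unadjusted limit, and the median was 0.05.

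Markers of DNA damage gave little. Of 24 p53 targets, 1 was at the unadjusted limit, the nuclease Aen at 0.43 ± 0.14 with no overlap between groups (4.17% against 4.73%). Cdkn1a differed by −0.15 (−0.61 to 0.30) and Ccng1 by −0.11 (−0.69 to 0.48). Among 42 DNA repair genes, 1 was higher at the limit (2.38% against 4.73%), Ercc2 at 0.44 ± 0.17, and 2 were lower (4.76% against 3.43%), its partners in nucleotide excision repair Ercc1 and Ercc3 at −0.46 ± 0.20 and −0.32 ± 0.12. The difference of Ercc1 was −0.22 without D0 mice 1 and 4. Among 30 proliferation genes 1 was at the limit (3.33% against 4.73%), Birc5, an inhibitor of apoptosis made in mitosis, at 0.50 ± 0.16 with 1 of its 3 probes of the opposite sign, and the list median was 0.09. With D0 mice 1 and 4 left out, more members were higher at the limit, 3 of 24 p53 targets (12.5%), 6 of 42 repair genes (14.3%) and 4 of 30 proliferation genes (13.3%), against 3.57% of all genes, and the medians were 0.16, 0.23 and 0.46. The proliferation list averaged −2.38, −2.47 and −2.06 in D0 mice 2 and 5 and D2 mouse 12, all on slide 3, and −1.72 to −1.21 elsewhere. The repair list averaged −1.18, −1.11 and −0.97 in the same mice and −0.76 to −0.39 elsewhere. Most controls left by this omission are on slide 3, and the part of slide in these counts was not tested.

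Nucleolar and RNA-processing genes held the largest number of members at the unadjusted limit. Like the others, this list was chosen with earlier results of these data known, so that its shares are a description. Of 33 tested, 8 were higher (24.2% against 4.73%) and 2 lower (6.06% against 3.43%), and in 4 the D2 mice lay above all controls (against 1.29% of genes). Trub2, a mitochondrial pseudouridine synthase, had the smallest p of all named genes. It read −0.44, −0.57, −0.28, −0.21 and −0.52 in D0 and 0.25, 0.19, 0.18 and 0.17 in D2, a log2 difference of 0.60 ± 0.11 (unadjusted p = 3.32e-05, adjusted p = 0.378, limma). The D2 values lay close together and above every control. Its second probe had the opposite sign.

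The splicing factor Rbm25 differed by 0.63 ± 0.15, the RNA helicase Ddx5 by 0.53 ± 0.15, the nucleolar chaperone Npm1 by 0.59 ± 0.17 and the rRNA methyltransferase Nop2 by 0.44 ± 0.14. Npm1 had 4 probes, of which only this one was higher, and it differed by −0.04 within slide 3. Of the 3 probes of Ddx5, 1 had the opposite sign. The splicing factor Srsf3 and the H/ACA protein Nop10 were the lower members, at −0.56 ± 0.18 and −0.45 ± 0.19. The list median, 0.12, ranged from 0.11 to 0.27 over the alternatives other than leaving out 1 mouse, and from 0.06 to 0.22 when 1 mouse was left out. Without D0 mice 1 and 4, 10 of the 33 genes were higher at the limit (30.3% against 3.57%), 0 were lower and the median was 0.27, the highest of those values.

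Integrins and adhesion proteins hold epithelial cells to each other and to the basement membrane. Of 29 integrin and adhesion genes tested, 5 were at the unadjusted limit and higher in D2 (17.2% against 4.73%), 0 were lower, and the median was 0.26. Itga6, an integrin of hemidesmosomes, read −0.55, 0.19, 0.90, −1.02 and −0.68 in D0 and 0.57, 0.46, 0.70 and 0.69 in D2, a log2 difference of 0.84 ± 0.30. The D2 values were tight, and control mouse 3 lay above all of them. Its partner Itgb4 differed by 1.03 ± 0.46, the linker Plec by 0.72 ± 0.31 and the laminin chain Lama5 by 0.92 ± 0.30. Without D0 mice 1 and 4 the difference of Itga6 was 0.47 and that of Plec was 0.40, whereas that of Lama5 was 0.90. In that setting 1 of the 29 genes was at the limit (3.45% against 3.57%), and the median of the list was 0.01.

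Of 22 keratins tested, 0 were at the unadjusted limit, and the median was 0.12. That median turned to −0.23 without D0 mice 1 and 4, with 1 keratin lower at the limit (4.55% against 1.38%), and was also below 0 with array column (−0.17) or the glandular list (−0.11) as a covariate. The largest differences were in Krt19, Krt20, Krt18 and Krt8, keratins of simple epithelia, at 2.12 ± 1.40, 2.05 ± 1.31, 1.81 ± 1.32 and 1.62 ± 1.24, with SDs of 2.02 to 2.67 among controls. The basal keratins Krt5 and Krt14 differed by 0.01 ± 0.40 and −0.13 ± 0.34. Krt23 was the member in which all D2 mice lay below the controls, at −0.30 ± 0.22. Of 28 genes of the cornified envelope, 0 were at the limit and the median was −0.12, with a range of −0.26 to 0.11 when 1 mouse was left out and −0.28 without D0 mice 1 and 4.

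**Figure D5:**
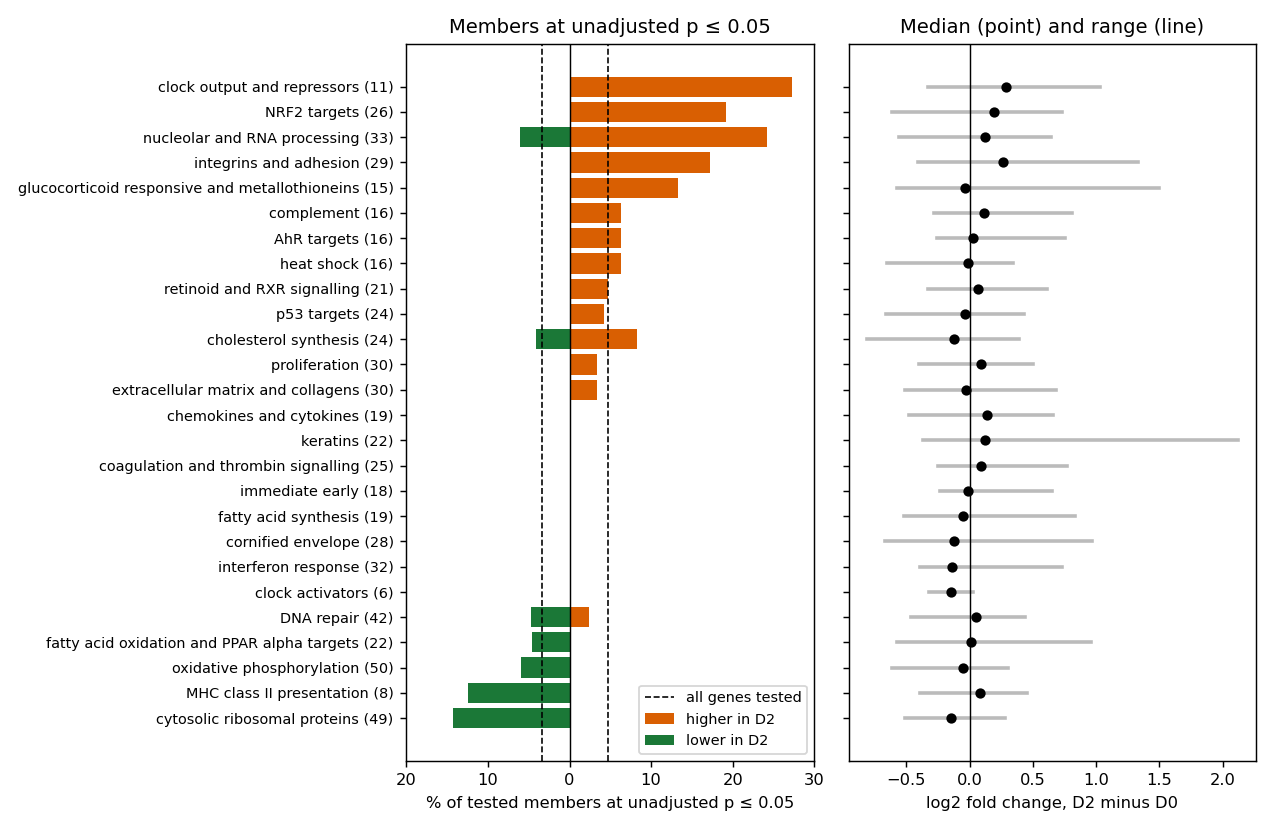
For each of 26 gene lists, with the number of genes tested in parentheses, the left panel gives the percentage of members at an unadjusted p of at most 0.05, higher to the right and lower to the left, with dashed lines at 4.73% and 3.43% for all genes. The right panel gives the median log2 difference as a point and the range as a line, and medians lie between −0.15 and 0.29.

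Clock output genes were higher in some D2 mice. Dbp, a circadian transcription factor, read −1.99, −2.56, −1.92, −1.34 and −1.97 in D0 and −1.93, −1.45, −0.77 and 0.45 in D2, a log2 difference of 1.03 ± 0.41 that was 0.57 without D2 mouse 15. Mice 13 and 15 were high and mouse 11 was at the level of the controls. The related Tef differed by 0.73 ± 0.24 and the repressor Cry2 by 0.36 ± 0.13, which made 3 of 11 tested genes of the list (27.3% against 4.73%), with a median of 0.29 that was 0.07 without D2 mouse 15 and 0.13 with median centring. The count was again 3 of 11 and the median 0.26 without D0 mice 1 and 4. In liver and lung the D2 difference of Dbp was 2.24 and 2.11, and the difference between tissues did not pass the limits (adjusted p = 1 for both).

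Of 49 ribosomal protein genes tested, 7 were lower (14.3% against 3.43%), 0 were higher and the median was −0.15. Rpl19, Rpl27, Rps7, Rpl7, Rps20, Rps28 and Rpl28 differed by −0.51 to −0.28. Rpl19, at −0.51, was −0.30 without D2 mouse 13, and Rps28, at −0.32, was −0.18 without D2 mouse 15. These genes have near-identical pseudogene copies, so that a probe may read more than 1 of them. When D0 mice 1 and 4 were left out, 0 of the 49 were at the limit and the median was −0.05, whereas median centring without loess gave a median of −0.43. Of 50 oxidative phosphorylation genes 3 were lower (6% against 3.43%), 0 were higher and the median was −0.05. They were the complex I subunits Ndufs8, Ndufb5 and Ndufa6 at −0.48, −0.40 and −0.43, with differences near 0 within slide 3 (−0.04, −0.08 and 0.05). Without D0 mice 1 and 4, 2 of the 50 were lower (4% against 1.38%) and the median was −0.23.

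Among immune and lipid lists, few members were at the limit. Of 32 interferon response genes 0 were at the limit and 7 were above 0 (21.9% against 53.3% of all genes), with a median of −0.14. The median ranged from −0.27 to 0.05 when 1 mouse was left out and was −0.03 without D0 mice 1 and 4, so that its sign is not settled. Of 16 complement genes 1 was higher at the limit (6.25% against 4.73%), C4b at 0.81 ± 0.34, which was 0.46 without D0 mice 1 and 4. Of 8 genes of MHC class II presentation 1 was lower (12.5% against 3.43%), the protease Ctss at −0.39 ± 0.18, which was −0.20 without D2 mouse 11 and −0.19 with median centring. Of 24 genes of cholesterol synthesis 2 were higher (8.33%) and 1 was lower (4.17%). Srebf2, the regulator of the pathway, differed by 0.32 ± 0.13 in 1 probe, with the opposite sign in its other probe and 0.17 without slide 1, and the enzyme Nsdhl by −0.73 ± 0.26. Single members at the limit were Hadha at −0.46 ± 0.17 among 22 genes of fatty acid oxidation (4.55% lower), the retinoid partner Rxrb at 0.45 ± 0.17 among 21 (4.76% higher), the chaperone Hspa4 at 0.29 ± 0.13 among 16 (6.25% higher) and the matrix protein Sparc at 0.57 ± 0.22 among 30 (3.33% higher). Rxrb was 0.28 without D0 mice 1 and 4, and Sparc was 0.32 with median centring and −0.32 within slide 3. A second probe of Sparc and 1 of the 3 probes of Hspa4 had the opposite sign. The lists of fatty acid synthesis, immediate early genes, chemokines and cytokines, coagulation, and clock activators held 0 members at the limit.

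The middle dose was also tested against its neighbours directly. Against D1 and against D3, 0 of 27527 probes passed both limits (0% each, limma), with 902 (3.28%) and 928 (3.37%) at the unadjusted limit. Mt1 was 1.09 higher than in D1 and 1.00 higher than in D3 on the log2 scale, and Mt2 was 0.52 and 0.53 higher, with adjusted p of 1 and 0.985 for each gene. Against the same controls, Mt1 differed by 0.41 at D1 and 0.50 at D3 and Mt2 by 0.61 and 0.60. Neat1 differed by 0.39 at D1 and 1.21 at D3, and was 0.85 higher in D2 than in D1 and 0.03 higher than in D3. Rtn3 differed by −0.33 and −0.79 and Trub2 by 0.31 and 0.69 at D1 and D3. In D3 against D0, unlike D2 against D0, this probe of Trub2 passed both limits (adjusted p = 0.0418, limma). These differences share the 5 control arrays with those of D2.

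The D2 effect in forestomach was also set against that in liver and lung, the latter with 3 D2 mice (12, 13 and 15), where Mt1 differed by 0.46 and 0.11, Neat1 by −0.11 and 0.32 and Rtn3 by −0.15 and −0.07. No probe passed both limits in the test of the difference between tissues (0 of 29775 for liver and 0 of 32699 for lung, 0% each), with 1830 (6.15%) and 1608 (4.92%) at the unadjusted limit. The adjusted p of that test was 0.654 and 0.642 for Mt1. Residual SDs, as medians over probes, were 0.28 for forestomach, 0.156 for liver and 0.159 for lung.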

How the data were processed

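Forestomach RNA was hybridized on 2-colour Agilent arrays, with no dye swap. The deposited scanner files hold a median intensity for every spot and channel, read out with Feature Extraction 10.7.3.1 per the file headers and not background-subtracted, beside flags of 0 or 1 for spots well above background. The authors deposited, as their processed values, log2 ratios (Cy5 over Cy3) of all probes on all arrays, and these were used here. According to the methods, LOWESS was run on each array separately, with no background subtracted. On the 9 arrays their correlation with ratios computed here by loess was 0.977 to 0.998 with a slope of 0.952 to 0.996, which fixes scale and direction. Precision is limited by the number of arrays, and the lack of a dye swap leaves a probe's dye bias in every ratio, where it cancels only between arrays. Replicates are separate mice per the labels.

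Probes were named through RefSeq accessions of the assembly GRCm38.p6 (47.4% of probes). They were tested with limma 3.58.1 in R 4.3.3 (lmFit and eBayes, two-sided, all 19 forestomach arrays, contrast D2 minus D0), with Benjamini-Hochberg adjustment over all 27527 probes. The methods name MAANOVA, and its Fs statistic, written here with 100 shuffles of residuals and p pooled over probes, was an alternative. A gene was represented by its probe with the highest mean Cy5 signal. Named genes were those past both limits, 8 fixed genes (Cyp1a1, Cyp1a2, Cyp1b1, Ahrr, Tiparp, Nqo1, Cdkn1a and Ccng1), the 10 highest and 10 lowest differences among genes well above background on all 9 arrays with an unadjusted p of at most 0.05 and no overlap between groups, genes well above background in 1 group only (0 found), and up to 4 members of each list by p. Further list members were named after their values were seen, where a count included them or for contrast. Some genes the rule names are not reported here. The members and the gene lists were chosen with earlier results of these data known, and the lists have no test of their own. The tissue interaction used all 56 arrays, weighted by the spread of each tissue. Array measures were compared by exact permutation in scipy 1.17.1. The fit was tested on simulated data. Alternatives were other normalizations and filters, only the 9 arrays, slide as a block, array column, glandular list or Cy5 brightness as covariates, array weights, a mean-variance trend and leaving out arrays, of which Cy5 brightness, the omission of slide 1 and the omission of D0 mice 1 and 4 were added after seeing the data.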

Additional observations from a re-analysis of the deposited data

Results flagged for a closer look

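Of 156 groups of 4 or 5 arrays examined, 8 held a mouse far from the rest, where about 1 in 20 is marked by chance. In D0, Cyp1b1 read −2.0 in mouse 2 against −0.43 to −0.22 in the others, Naprt read 1.54 in mouse 4 against 3.22 to 3.80, and Rpl19 read −0.57 in mouse 3 against 0.01 to 0.23. In D2, mouse 12, the D2 mouse of the bright slide 3, was apart in 4 of the 8: Naprt at 4.23 against 3.81 to 3.85, Ercc1 at −0.73 against −0.51 to −0.48, Rbm25 at −0.68 against −0.24 to −0.19, and the mean of the skeletal muscle list at 0.08 against 0.28 to 0.30. Rps28 read −0.50 in D2 mouse 15 against 0 to 0.09 in the other D2 mice.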

How the results depend on the processing

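The count of probes past both limits in D2 against D0 (0 in the fit reported) was 1 with loess computed here, 1 with normexp background correction, 1 with array column as a covariate, 1 with Cy5 brightness as a covariate and 57 with array weights, and 0 under the other settings run, including the omission of any 1 mouse. Array weights gave adjusted p of 0.0348 to 0.0466 for 11 named genes with log2 differences of 1.5 (Mt1), 1.21 (Mt2), 1.16 (Tnip1), 1.09 (Mat2a, Ptma), −1.01 (Rtn3), −0.90 (Sec13), −0.81 (Churc1), 0.60 (Trub2), 0.65 (Rbm25) and 0.79 (Npm1). D2 against D1 gave 1 probe with loess, slide as a block or array weights, and D2 against D3 gave 1 with array weights. The difference from liver gave 4 probes with loess, and that from lung 4 without weights. At the unadjusted limit, median centring without loess left 2 probes higher and 16 lower (902 and 1173 in the fit reported), Cy5 brightness as a covariate gave 1455 and 2011, the omission of slide 1 gave 380 and 365, and the omission of D0 mice 1 and 4 gave 756 and 543. The signs of fixed genes with small differences turned: Cdkn1a was 0.02 with loess, 0.08 with median centring and 0.02 with normexp. Nqo1 was −0.31 with array column, −0.16 with the glandular list as a covariate and −0.20 without D0 mice 1 and 4. Ccng1 was 0.07 and Cyp1a1 −0.03 with median centring, and Cyp1a1 was −0.02 with slide as a block. Leaving out 1 mouse gave −0.10 to 0.45 for Nqo1, −0.33 to 0.05 for Ccng1, −0.20 to 0.45 for Cyp1b1 and −0.07 to 0.17 for Cyp1a1. The cause was not tested. Of 1471 values of named genes, 1446 kept direction and side of the limit. D0 and D2 mice share no number, so that this comparison cannot be paired, but mice of the same numbers gave the other tissues, except that no lung array of D2 mouse 11 was used, and the replicate block (mouse) gave 0 probes in both tissue comparisons (smallest adjusted p 0.461 and 0.477). Signal over background limits weak probes such as Cyp1a1, well above background on 1 of the 9 arrays.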

Other observations

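After the region probe and Trub2, the next 5 probes by p lie outside the named genes and are given here as chosen after their values were seen. In each, all D2 values lay beyond all controls. Ybx1, a cold-shock RNA-binding protein, differed by 0.89 ± 0.18 in 1 probe and by 0.48 ± 0.30 in another. Ythdc1, a nuclear reader of methylated adenosine in RNA, differed by 0.72 ± 0.15. Hnrnpf, a splicing regulator, differed by 0.56 ± 0.12 in 1 probe, and by 0.00 ± 0.19 in another. Tsen54, of the tRNA splicing endonuclease, differed by 0.51 ± 0.11 in 1 probe and 0.02 ± 0.10 in the other. Cd47, the surface protein that inhibits phagocytosis, differed by −0.56 ± 0.12 in 1 probe and by −0.45 ± 0.16 in another, whose groups overlapped. The adjusted p of each of the 5 probes was 0.378 in limma.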
